A study of Mus musculus with 12 samples.

Results

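Chemokines are small secreted proteins that steer leukocytes, and chemokine receptors are the membrane proteins that read them. Described here are the mouse chemokines and chemokine receptors measured early after wounding of the epidermis, apart from 8 genes of the same family (Ccl20, Ccr6, Cxcl1, Cxcl2, Cxcr2, Ccl21a, Ccl21c and Ccr7). The members were chosen by gene symbol, as every named probe set of a CC, CXC, CX3C or XC ligand, a receptor of these, an atypical receptor, or one of the platelet chemokines Pf4 and Ppbp. There were 46 such probe sets for 42 genes, out of 1246 probe sets and 909 named genes in all. Of these, 28 probe sets belonged to 25 ligand genes and 18 to 17 receptor genes. Ccl27a had 3 probe sets, and Cxcl12 and Ccr9 had 2 each.

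The study asked which genes change soon after injury of the epidermis, in samples whose titles carry the strain tag B6. Besides 4 non-wounded samples, the series held wounded samples of several times (1 taken at 0 h, 2 taken after 30 min, 4 after 2 h, and 1 after 4 h), with no other treatment or allele named. The plan of the series speaks of RNA from the whole epidermis, while every label names dendritic epidermal T cells (DETC), the resident T cells of mouse skin. Age, sex, wound type, pooling of animals and whether the replicates came from separate mice were not stated by the sources used here. The p-values therefore rest on a spread between samples that may be only technical.

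In skin, some chemokines are made at rest by keratinocytes and place resident T cells and dendritic cells, while others are induced after injury and draw neutrophils and monocytes. A ligand binds one or several G-protein-coupled receptors, which raise calcium in the leukocyte and turn its movement along the gradient. Atypical receptors bind the same ligands but take them up for degradation.

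Many member genes sit next to each other in the genome. By the order of the RefSeq gene table, the receptor genes Ccr9, Cxcr6, Xcr1, Ccr1, Ccr1l1, Ccr3 and Ccr2 are neighbours on chromosome 9. The ligand genes Ccl7, Ccl11, Ccl12, Ccl8 and Ccl1 form a run on chromosome 11, and Ccl5, Ccl9, Ccl3 and Ccl4 form another there. Cxcl5, Ppbp, Pf4 and Cxcl15 lie together on chromosome 5, and Ccl22, Cx3cl1 and Ccl17 on chromosome 8. Such neighbours are gene duplicates, and closely alike transcripts such as those of Ccr1 and Ccr1l1 or the copies of Ccl27a may share signal on an array.

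The promoters of Xcl1 and Cx3cl1 are shown because these 2 ligands had the lowest differences from the non-wounded samples at 30 min (-1.25 and -0.50), described after the 2 h values. Each stretch is the 150 bases directly before the annotated start, read 5′ to 3′ along the gene from RefSeq (GRCm38.p6), with a TATAAA motif in capitals where present. The Xcl1 promoter lies at chr1:164935523-164935672 on the minus strand and the Cx3cl1 promoter at chr8:94772030-94772179 on the plus strand.
Xcl1: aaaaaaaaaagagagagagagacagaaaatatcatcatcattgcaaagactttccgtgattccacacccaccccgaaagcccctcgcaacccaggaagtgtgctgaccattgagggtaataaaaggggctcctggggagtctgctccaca
Cx3cl1: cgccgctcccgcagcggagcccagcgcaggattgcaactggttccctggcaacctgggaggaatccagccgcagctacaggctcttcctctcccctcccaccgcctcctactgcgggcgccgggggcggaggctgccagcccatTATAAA
Across the 250 bases before the start, searched on both strands, TATAAA stood in 13 of 36 promoters of 33 matched member genes, against 12.4% of all 32851 promoters. The kappa B-like motif GGGNNNNNCC stood in 18 of the 36, against 45.8% of all, and the AP-1-like motif TGANTCA in 6, against 6.75%. The stretch printed for Xcl1 held 0 matches to the 3 motifs, which says only that these letters are not in this window.

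Each group had 1 sample numbered 1 in its title, and these 5 differed from all others. The SD of their log2 values across the table was between 1.56 and 1.85, and in the 7 samples numbered 2 to 4 it was between 2.20 and 2.30. For 0 h and 4 h no other kind of sample existed, so time and kind of sample cannot be told apart there, and at 30 min there was 1 of each kind. Of the 46 member probe sets, 34 were higher in the non-wounded sample numbered 1 than in the mean of the non-wounded samples numbered 2 to 4. Since the share over all probe sets was not counted, this describes the members and is no result about them. The label could be checked only in part: 5 of 12 T cell markers were measured (Cd2, Cd69, Klrk1, Il2ra and Il2rb), with the Cd3 genes and Trdc not among the named probe sets. In the non-wounded samples the activating receptor Klrk1, which DETC carry, was at a log2 value of 2.38 ± 0.12 (SD, n = 4), and Cd2, Il2rb, Il2ra and Cd69 were at 4.77 ± 0.22, 5.09 ± 0.29, 3.13 ± 0.19 and 2.47 ± 0.17. The keratinocyte galectin Lgals7 was at 12.08 ± 0.27 and the Langerhans cell lectin Cd207 at 7.86 ± 0.63, and both are products of cells other than T cells. Fgfr2, the other keratinocyte marker measured, was at 9.78 ± 1.05. The other Langerhans and dendritic cell markers measured were unlike each other. Cd74 was at 10.78 ± 0.45, while Cd83, Cd209a, Flt3 and Clec4a2 were at 4.14, 4.20, 4.66 and 1.99, in the range of the T cell markers or below it. Since signals of different probe sets have no common scale, these values do not give the share of any cell type. All values below are such log2 values after robust multi-array averaging (RMA), a difference of 1 is a doubling, and levels are compared only within a probe set.

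At 2 h after wounding, no chemokine or receptor among the members passed the test against the non-wounded samples (limma, Benjamini-Hochberg adjusted p under 0.05 over 1246 probe sets). Ccl7, a monocyte attractant, had the smallest p and the largest positive difference, and Cxcr6, the receptor of the ligand CXCL16, had the lowest difference. The count was 0 of 46, against 3 of all 1246 probe sets (0.241%). With the replicate number as a block it was again 0, against 17 of all (1.36%), and in the samples numbered 2 to 4 alone it was 0, against 38 (3.05%). At an unadjusted p under 0.05 there was 1 member (2.17%), against 58 of all probe sets (4.65%), and with the block 3 members (6.52%), against 172 (13.8%).

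The differences at 2 h were small. They ran from -0.43 to 0.47 over the 46 probe sets, and none reached 1 in size. The 95% interval lay wholly between -1 and 1 for 39 of the 46, and for 45 with the replicate block. The exceptions without the block were Ccl24, 2 of the 3 Ccl27a probe sets, Cxcl14, Xcl1, Ackr4 and 1 of the 2 Ccr9 probe sets. The median difference of the members was 0.05 with 30 of 46 higher (65.2%), and over all probe sets it was 0.03 with 54.5% higher. Under the 25 percentile of mean value over all probe sets, 12 of 17 members were higher, against 228 of all 312 probe sets there (73.1%). Among the 29 other members 18 were higher (62.1%). Ligands were higher in 22 of 28 (median 0.10) and receptors in 8 of 18 (median -0.05). These directions depended on the scaling: with every sample brought to one median and SD, 18 of 46 members were higher (median -0.06), against 36.7% of all probe sets (median -0.06). Single values moved as well: of 75 differences of members followed through the alternatives, 54 moved by over 1.5 times under at least 1 of 3 other scalings, and 71 when at least 1 sample was left out.

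**Figure D1:**
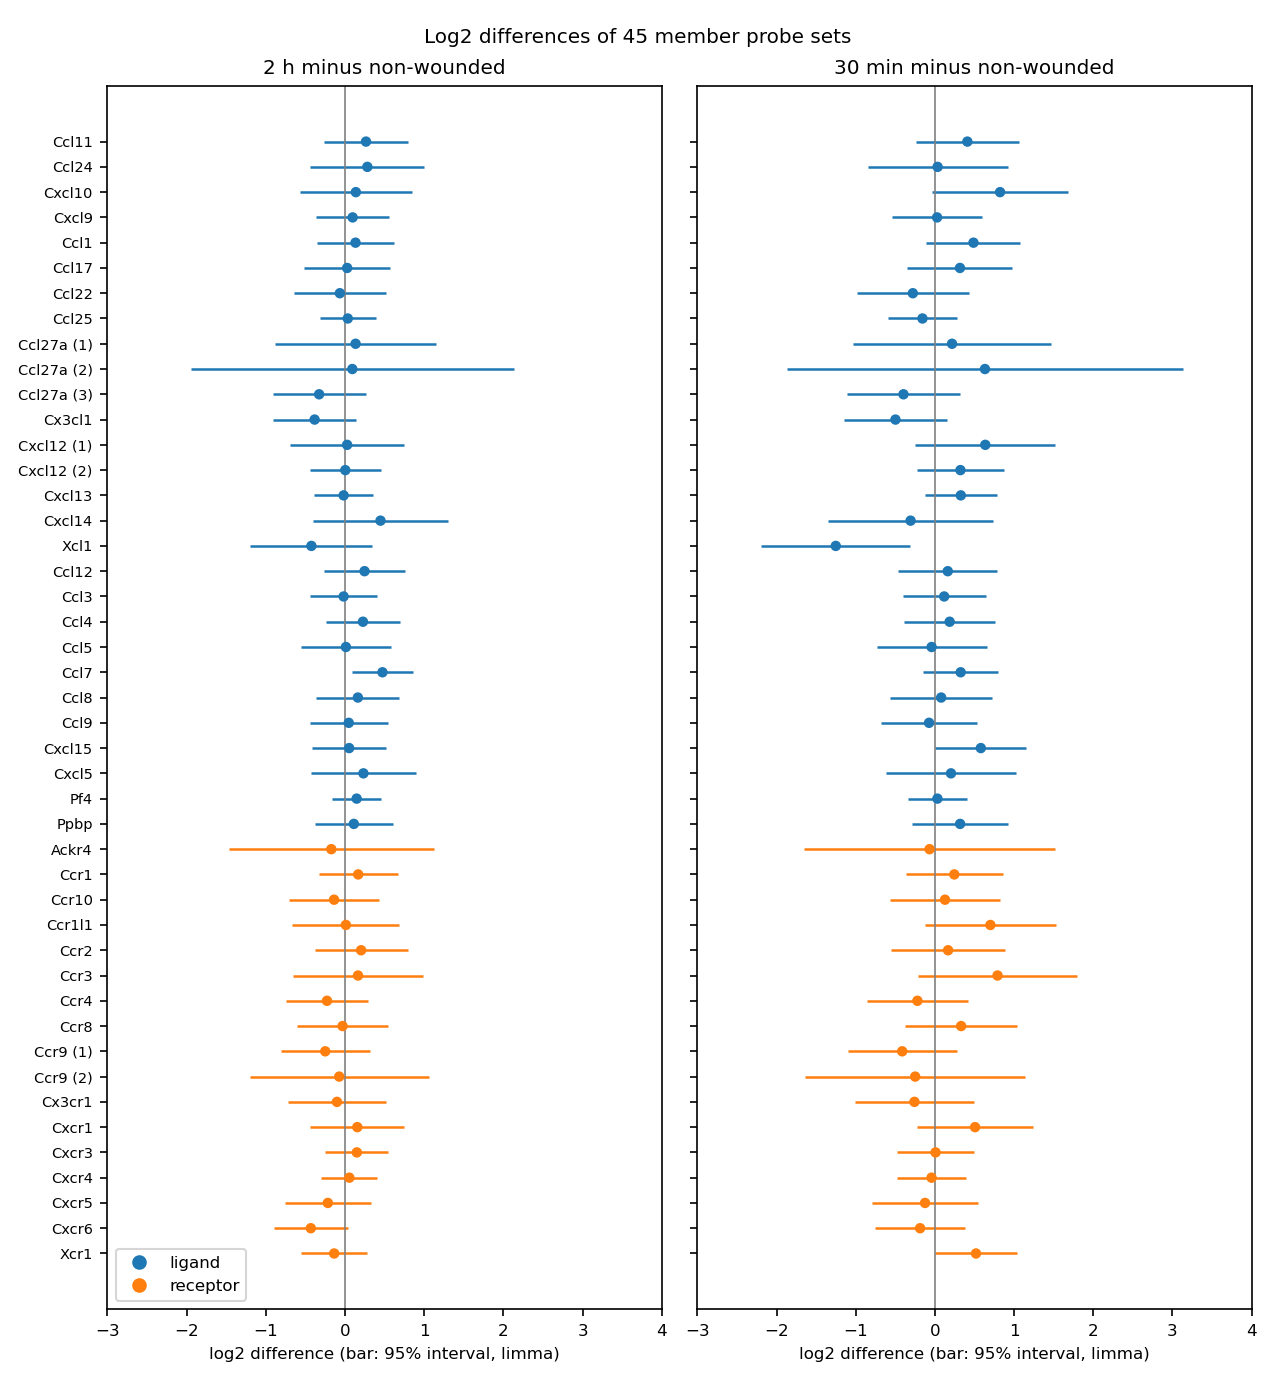
Log2 difference (x axis) of 45 member probe sets (y axis, gene symbols, numbered where a gene has several) at 2 h and at 30 min against the non-wounded samples, as points with limma's 95% intervals as bars, ligands in blue and receptors in orange. At 2 h the points run from -0.43 to 0.47, and at 30 min from -1.25 (Xcl1) to 0.82 (Cxcl10).

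Among the 7 measured ligands best known for drawing monocytes, Ccl7 was the one whose 2 h and non-wounded samples did not overlap. Its values were 2.28, 2.50, 2.39 and 2.39 in the non-wounded samples numbered 1 to 4, and 3.04, 2.95, 2.83 and 2.64 in the 2 h samples with the same numbers. It was at 2.71 at 0 h, 3.00 and 2.43 at 30 min and 2.73 at 4 h. Every 2 h sample lay above every non-wounded sample, so 4 of 4 numbered pairs were necessarily higher too. The difference was 0.47 ± 0.17 SE (95% interval 0.09 to 0.86), a 1.39-fold level, with a limma adjusted p of 0.75, or 0.246 with the block. After scaling to one median and SD it was 0.31. Non-overlap of this kind, with the 2 h samples higher, held for 1 of 46 members and for 25 of all probe sets (2.01%). With the 2 h samples lower it held for 0 members and 34 of all (2.73%). Ccl7 lay under the 25 percentile of mean value over all probe sets.

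Fibroblast markers differed in the same direction as Ccl7. All 6 measured fibroblast markers of 8 listed (Dcn, Fmod, Lum, Pdgfra, Fgf7 and Bgn) were higher at 2 h, with a median difference of 0.40 and 0 of 6 past the test. Their summed linear level was 63.0 to 78.7 in the non-wounded samples, 82.1 to 96.6 at 30 min, 89.3 to 110 at 2 h, 86.3 at 0 h and 92.2 at 4 h. The part of this shift in the Ccl7 values was not tested. The direction was not particular to fibroblasts: 4 of 4 measured neutrophil markers (median 0.29) and 3 of 3 endothelial markers (0.19) were also higher at 2 h. So was the 1 mast cell marker measured. Of the T cell, Langerhans cell, monocyte and keratinocyte markers 3 of 5, 3 of 6, 3 of 5 and 1 of 2 were higher. The summed level of the 5 measured monocyte and macrophage markers of 9 listed was 189 to 285 in the non-wounded samples and 137 to 269 at 2 h, with 0 of 5 past the test.

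Ccl3, Ccl4 and Ccl5, inflammatory ligands that draw monocytes and T cells, had overlapping groups and no call. Ccl4 was at 3.61, 3.06, 2.88 and 2.78 in the non-wounded samples, 3.38 at 0 h, 3.51 and 3.02 at 30 min, 3.41, 3.20, 3.30 and 3.33 at 2 h and 3.41 at 4 h. Its sample numbered 1 was the highest of the non-wounded group, so the groups overlapped, while among the numbers 2 to 4 every 2 h sample was higher. The 2 h difference was 0.23 ± 0.21 SE (limma adjusted p = 0.998). It was 0.07 after scaling to one median and SD and 0.13 after repeated quantile normalization, and it ran from 0.13 without the non-wounded sample numbered 4 to 0.40 without the one numbered 1.

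For Ccl3 the non-wounded values were 3.05, 2.45, 2.49 and 2.47, followed by 3.03 at 0 h, 2.97 and 2.49 at 30 min, 2.73, 2.46, 2.59 and 2.62 at 2 h and 2.48 at 4 h. Ccl5 was at 5.59, 4.94, 4.76 and 4.43 without wounding, 5.67 at 0 h, 4.91 and 4.86 at 30 min, 5.35, 4.81, 4.74 and 4.86 at 2 h and 5.08 at 4 h. In both genes the samples numbered 1 were mostly the high ones and the groups overlapped. The 2 h differences were -0.02 for Ccl3 and 0.01 for Ccl5. Ccl8, Ccl9 and Ccl12, the remaining monocyte attractants measured, differed by 0.16, 0.05 and 0.25 at 2 h and by 0.08, -0.07 and 0.16 at 30 min. Of the 7 probe sets of this role, 6 were higher at 2 h (median 0.16) and 4 after scaling to one median and SD.

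Cxcl14, a chemokine that keratinocytes make at rest, was higher at 2 h in each of the 4 numbered pairs. Its non-wounded values were 5.85, 6.69, 6.34 and 6.39, and its 2 h values were 5.86, 6.98, 6.84 and 7.39. It was at 5.40 at 0 h, 5.35 and 6.67 at 30 min and 5.44 at 4 h. The samples numbered 1 were the lowest of both large groups, so the groups overlapped, and the pair numbered 1 differed by only 0.01, while the numbers 2 to 4 differed by 0.60 on average without overlap. The 2 h difference was 0.45 ± 0.38 SE, with an adjusted p of 0.998 in limma and 0.31 with the block (unadjusted 0.0355). It was 0.24 without the 2 h sample numbered 4, 0.29 without the non-wounded sample numbered 1 and 0.75 without the 2 h sample numbered 1. Between 30 min and 2 h it differed by 0.76 ± 0.47 SE (limma adjusted p = 0.98), and by 0.09 without the 30 min sample numbered 1. Agreement of all 4 numbered pairs held also for Ccl7 and Ccr2 (higher) and for Cx3cl1 (lower). Its share over all probe sets was not counted, so it describes these genes and is no result about them.

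Cx3cl1, or fractalkine, a membrane-bound ligand that cells shed, was lower at 2 h in all 4 numbered pairs. Without wounding it was at 6.58, 7.28, 7.18 and 6.96, and at 2 h it was at 6.30, 6.87, 6.45 and 6.83. The other samples read 7.06 at 0 h, 6.15 and 6.85 at 30 min and 5.59 at 4 h. The non-wounded sample numbered 1 lay below 2 of the 2 h samples, so the groups overlapped, and the 4 h value was the lowest of the 12. The difference was -0.38 ± 0.24 SE at 2 h (limma adjusted p = 0.998, with the block 0.284) and -0.50 ± 0.29 SE at 30 min (0.735, with the block 0.446). After repeated quantile normalization it was -0.13 at 2 h and 0.10 at 30 min, so the direction at 30 min turned. The 30 min difference was -0.25 after scaling to one median and SD and -0.28 over the numbers 2 to 4, and it was -0.14 without the 30 min sample numbered 1 and -0.85 without the one numbered 2. Its receptor Cx3cr1, found on monocytes and some T cells, was at 4.18, 5.55, 5.27 and 4.66 without wounding, 4.26 at 0 h, 4.69 and 4.62 at 30 min, 4.85, 4.82, 4.69 and 4.90 at 2 h and 4.62 at 4 h. The non-wounded samples spread over more than 1 unit and the 2 h samples over far less, and the difference was -0.10 ± 0.27 SE.

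Cxcr6 guides T cells toward cells that carry CXCL16. It was at 4.03, 4.50, 4.73 and 4.49 in the non-wounded samples and at 4.32, 3.96, 3.62 and 4.12 at 2 h. Its other values were 3.94 at 0 h, 4.32 and 4.18 at 30 min and 4.16 at 4 h. The pair numbered 1 was higher at 2 h by 0.29, while the numbers 2 to 4 were lower by 0.67 on average, with no overlap among them. The 2 h difference was -0.43 ± 0.21 SE (95% interval -0.89 to 0.03, limma adjusted p = 0.998). The summed level of the 5 T cell markers was 73.9 to 95.5 without wounding and 85.4 to 136 at 2 h, beside the lower Cxcr6 values. Of the 5, Cd2 differed by 0.63, Il2rb by 0.18, Cd69 by 0.07, Klrk1 by -0.05 and Il2ra by -0.05 (median 0.07, 0 past the test). After scaling to one median and SD 2 of 5 were higher, with a median of -0.07, and the part of these markers in the Cxcr6 values was not tested. If the samples held several cell types, fewer cells of a type and less RNA per cell could not be told apart.

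Ccr4, a receptor of skin-homing T cells, had the same split. It was at 4.02, 4.55, 4.27 and 4.08 without wounding, 4.23 at 0 h, 4.14 and 3.87 at 30 min, 4.58, 3.99, 3.60 and 3.85 at 2 h and 4.39 at 4 h. The 2 h sample numbered 1 was the highest of the 12, and the other 3 samples at 2 h lay below all 4 non-wounded ones. The difference was -0.23 ± 0.23 SE (limma adjusted p = 0.998), and it was -0.49 over the numbers 2 to 4. It was -0.09 without the 2 h sample numbered 3, -0.12 without the non-wounded sample numbered 2 and -0.42 without the 2 h sample numbered 1. Its ligands are Ccl17 and Ccl22. Ccl17 was at 4.54, 3.72, 3.96 and 3.58 without wounding, 3.96 at 0 h, 4.58 and 3.95 at 30 min, 3.95, 4.15, 3.75 and 4.07 at 2 h and 4.58 at 4 h. Ccl22, made by dendritic cells, was at 5.36, 5.41, 4.93 and 4.55, then 5.22 at 0 h, 4.42 and 5.15 at 30 min, 5.003, 5.26, 4.61 and 5.11 at 2 h and 4.44 at 4 h. The groups overlapped for both ligands, with 2 h differences of 0.03 and -0.06.

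**Figure D2:**
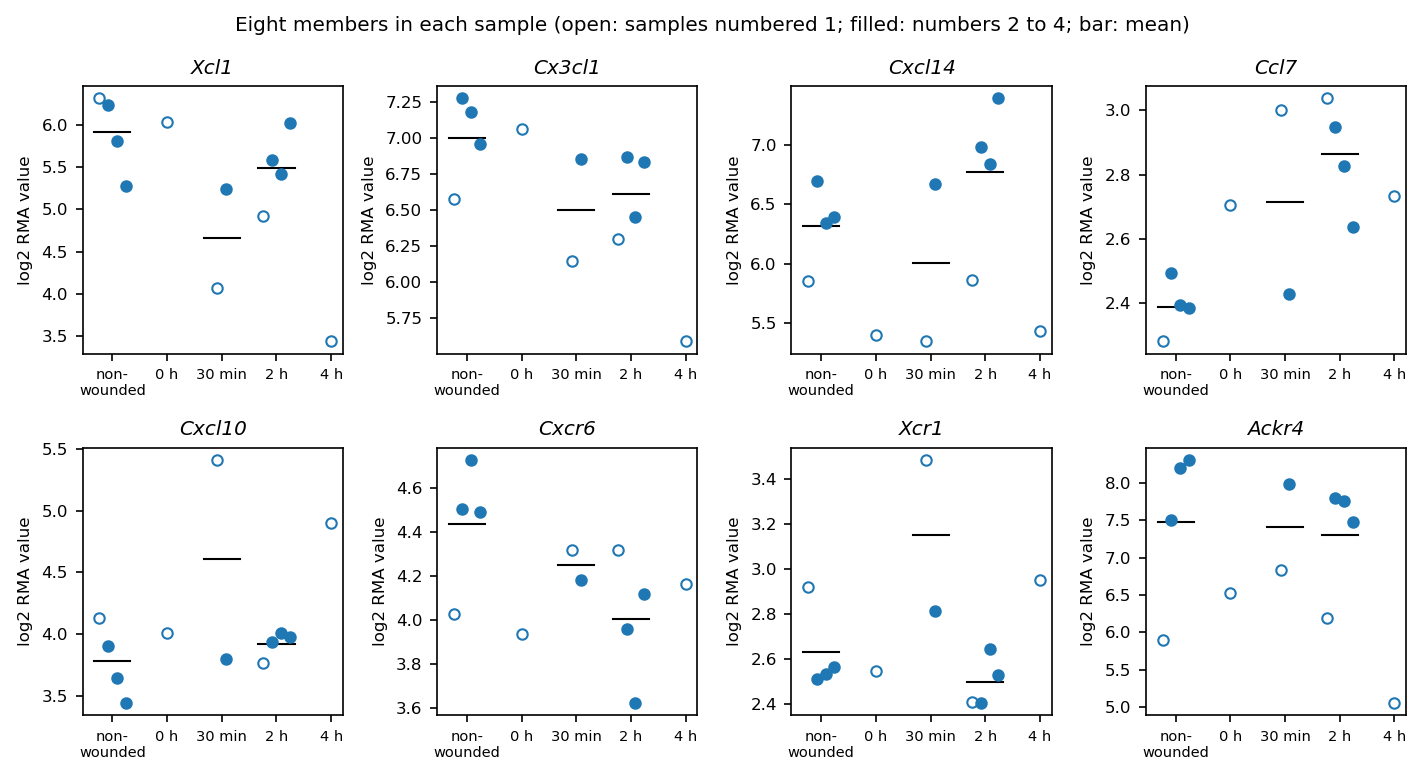
Log2 RMA value (y axis) of 8 members in each of the 12 samples by group (x axis), with open circles for the samples numbered 1, filled circles for the numbers 2 to 4 and a bar at the mean of groups with several samples. The 4 samples of Ccl7 at 2 h lie above all 4 non-wounded ones, and for Ackr4, Cxcl14 and Cxcr6 the open circles sit apart from the filled ones in the non-wounded group.

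Restricting both groups to the numbers 2 to 4 gave more members without overlap. There were 6 higher at 2 h (Cxcl10, Ccl1, Cxcl14, Ccl4, Ccl7 and Pf4), against 183 of all probe sets (14.7%). There were 4 lower (Ccl25, Cx3cl1, Ccr4 and Cxcr6), against 130 of all (10.4%). Both counts, out of 46, were near the background share. A fit that gives each array its own weight called 7 members at 2 h, against 130 of all probe sets (10.4%). These were Cxcr6 (-0.75, limma adjusted p = 0.00401), Ccl7 (0.43, 0.0116), Cxcl14 (0.63, 0.0217), Ccl4 (0.36, 0.0217), Ccr4 (-0.43, 0.0413), Pf4 (0.26, 0.0422) and Cx3cl1 (-0.42, 0.0483). All of the 7 are among the 10 whose numbers 2 to 4 did not overlap. Both lists rest on the same samples, so their overlap is no separate support for the 7. Over the settings run for 2 h the smallest limma adjusted p of any member ran from 0.00401 to 1.

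**Figure D3:**
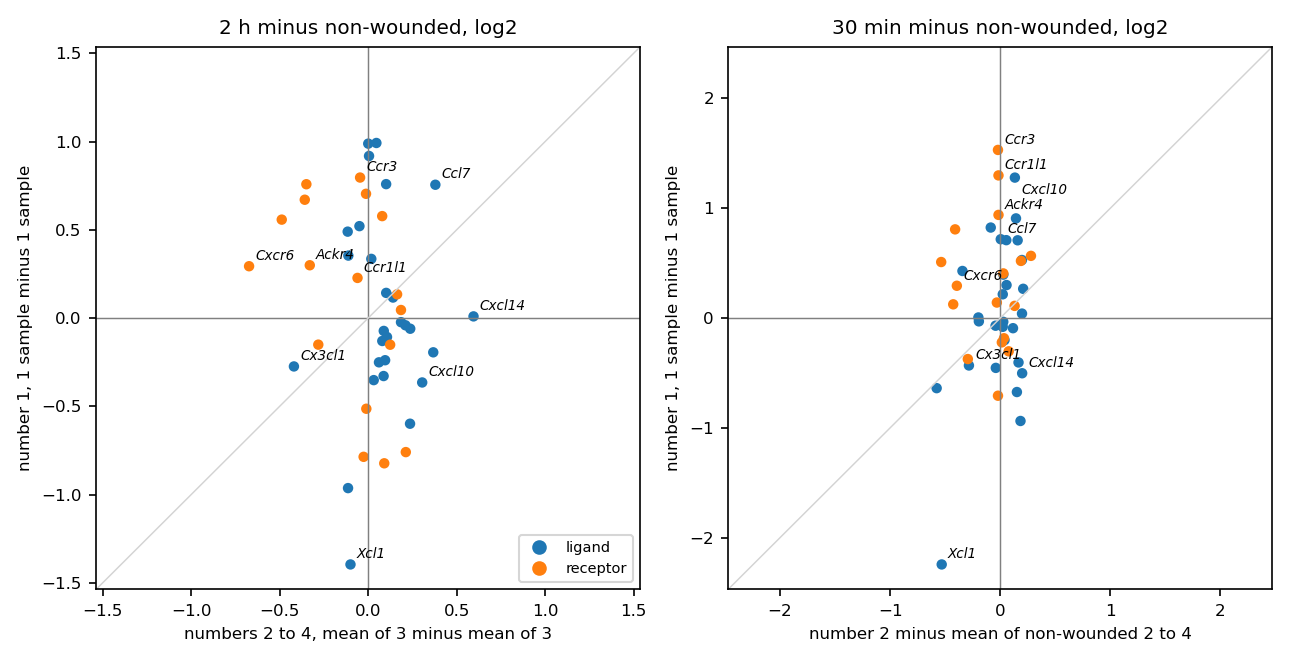
Log2 difference from the non-wounded samples for 45 of the probe sets in the samples numbered 2 and above (x axis) and in the single pair numbered 1 (y axis), at 2 h (left) and 30 min (right), with a diagonal of equal values. At 2 h Cxcr6 lies at -0.67 on the x axis and 0.29 on the y axis, and at 30 min Ccr3 lies at -0.02 and 1.53.

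At 30 min after wounding, again no member passed the test. Xcl1, a T cell and natural killer cell chemokine also called lymphotactin, was the member with the largest difference and the smallest p. The count was 0 of 46, with 0 of all 1246 probe sets past the threshold (0%), and likewise 0 and 0 (0%) with the replicate block. At an unadjusted p under 0.05 limma had 3 members (6.52%), namely Xcl1, Cxcl15 and Xcr1, against 63 of all (5.06%). With the block there were 4 (8.70%), against 136 (10.9%). Only 24 of the 46 intervals lay wholly between -1 and 1 for this group of 2 samples, and 34 did with the block. The median of the members was 0.14 with 30 of 46 higher, against 0.04 and 53.8% of all probe sets. With the block 22 members were higher (median -0.01), and after scaling to one median and SD 20 were (median -0.08). Over all probe sets the median went from 0.04 to -0.09 under that scaling, and 40.7% were then higher. Without block or scaling, 15 of 17 members under the 25 percentile of mean value were higher. So were 273 of all 312 such probe sets (87.5%). Among the 29 other members 15 were higher (51.7%, median 0.01).

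Xcl1 stood at 6.32, 6.24, 5.81 and 5.28 in the non-wounded samples and at 6.04 at 0 h. It was at 4.07 and 5.24 at 30 min, 4.92, 5.58, 5.42 and 6.02 at 2 h and 3.44 at 4 h. Both 30 min samples lay below all non-wounded ones, the one numbered 2 by a narrow margin, and the 4 h sample was the lowest of all. The 30 min difference was -1.25 ± 0.42 SE (95% interval -2.20 to -0.31), a 2.38-fold lower level, with a limma adjusted p of 0.735, or 0.432 with the block. The samples numbered 1 differed by -2.24, and the sample numbered 2 differed from the mean of the non-wounded numbers 2 to 4 by -0.53. After scaling to one median and SD the difference was -1.34. The summed T cell markers were at 77.0 to 92.3 at 30 min, inside their non-wounded range of 73.9 to 95.5, with 93.8 at 4 h. Of the 5 markers 4 were higher at 30 min (median 0.27), and 3 after scaling to one median and SD (median 0.07), with 0 past the test. Without overlap, 2 of 46 members were lower at 30 min (Xcl1 and Ccl25) and 0 higher, against 64 (5.14%) and 31 (2.49%) of all probe sets.

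The receptor of XCL1 is XCR1, a mark of cross-presenting dendritic cells. Xcr1 was at 2.92, 2.51, 2.53 and 2.57 without wounding, 2.55 at 0 h, 3.49 and 2.82 at 30 min, 2.41, 2.41, 2.65 and 2.53 at 2 h and 2.95 at 4 h. The 30 min sample numbered 1 was the highest of the 12, and the sample numbered 2 lay above the 3 non-wounded samples numbered 2 to 4 but below the first. The difference at 30 min was 0.52 ± 0.23 SE (limma adjusted p = 0.735), which was 0.27 after scaling to one median and SD. Xcr1, too, lay under the 25 percentile of mean value.

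Cxcl10, an interferon-induced ligand of CXCR3, had the largest positive difference at 30 min. It was at 4.13, 3.91, 3.65 and 3.44 without wounding, 4.01 at 0 h, 5.41 and 3.80 at 30 min, 3.77, 3.93, 4.01 and 3.97 at 2 h and 4.90 at 4 h. Its high values were the 30 min and 4 h samples numbered 1, while the 30 min sample numbered 2 lay inside the non-wounded range. The difference was 0.82 ± 0.38 SE (limma adjusted p = 0.735). Cxcl9, another interferon-induced ligand of the same receptor and a neighbour of Cxcl10 on chromosome 5, differed by 0.03, and Cxcr3 itself by 0.01.

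Cxcl15, a neutrophil attractant, was at 3.15, 3.01, 2.98 and 2.80 without wounding, 3.21 at 0 h, 4.05 and 3.07 at 30 min, 3.04, 3.08, 3.02 and 3.01 at 2 h and 4.14 at 4 h. Again the 30 min and 4 h samples numbered 1 were the high ones, near 4, with every other sample near 3. The difference at 30 min was 0.58 ± 0.26 SE (limma adjusted p = 0.735). Cxcl5, Pf4 and Ppbp, its neighbours on chromosome 5, differed by 0.20, 0.03 and 0.32 at 30 min and by 0.23, 0.15 and 0.11 at 2 h. Cxcr1, a receptor for neutrophil attractants, differed by 0.51 and 0.16.

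Several receptors of the chromosome 9 run were high in the 30 min sample numbered 1. Ccr3, the eosinophil receptor, was at 2.60, 2.66, 2.34 and 2.36 without wounding, 3.55 at 0 h, 4.13 and 2.43 at 30 min, 3.39, 2.46, 2.29 and 2.47 at 2 h and 3.72 at 4 h. All 4 wounded samples numbered 1 lay at 3.39 or above, and every other sample lay at 2.66 or below. Only 1 non-wounded sample was numbered 1, and the share of all probe sets with this split was not counted. The split therefore describes Ccr3 and is no result about it. The difference was 0.79 ± 0.45 SE at 30 min and 0.16 ± 0.36 SE at 2 h (limma adjusted p = 0.735 and 0.998). Ccr2, the receptor that brings monocytes out of the marrow, was at 2.83, 2.40, 2.34 and 2.40, then 2.83 at 0 h, 2.97 and 2.35 at 30 min, 3.40, 2.43, 2.38 and 2.57 at 2 h and 2.78 at 4 h. Here too the samples numbered 1 held the high values, and the differences were 0.17 at 30 min and 0.20 at 2 h. Ccr1 differed by 0.24 and 0.17, Ccr1l1 by 0.70 and 0.01, and the 2 probe sets of Ccr9 by -0.41 and -0.25 at 30 min and -0.25 and -0.07 at 2 h. Ccr3, Ccr2, Ccr1, Ccr1l1 and a Ccr9 probe set lay under the 25 percentile of mean value. Of all probe sets under it, 87.5% were higher at 30 min (median 0.22, largest 0.97). A higher value alone is therefore not particular to Ccr3, Ccr2, Ccr1 and Ccr1l1. The share with differences as large as those of Ccr3 and Ccr1l1 was not counted.

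**Figure D4:**
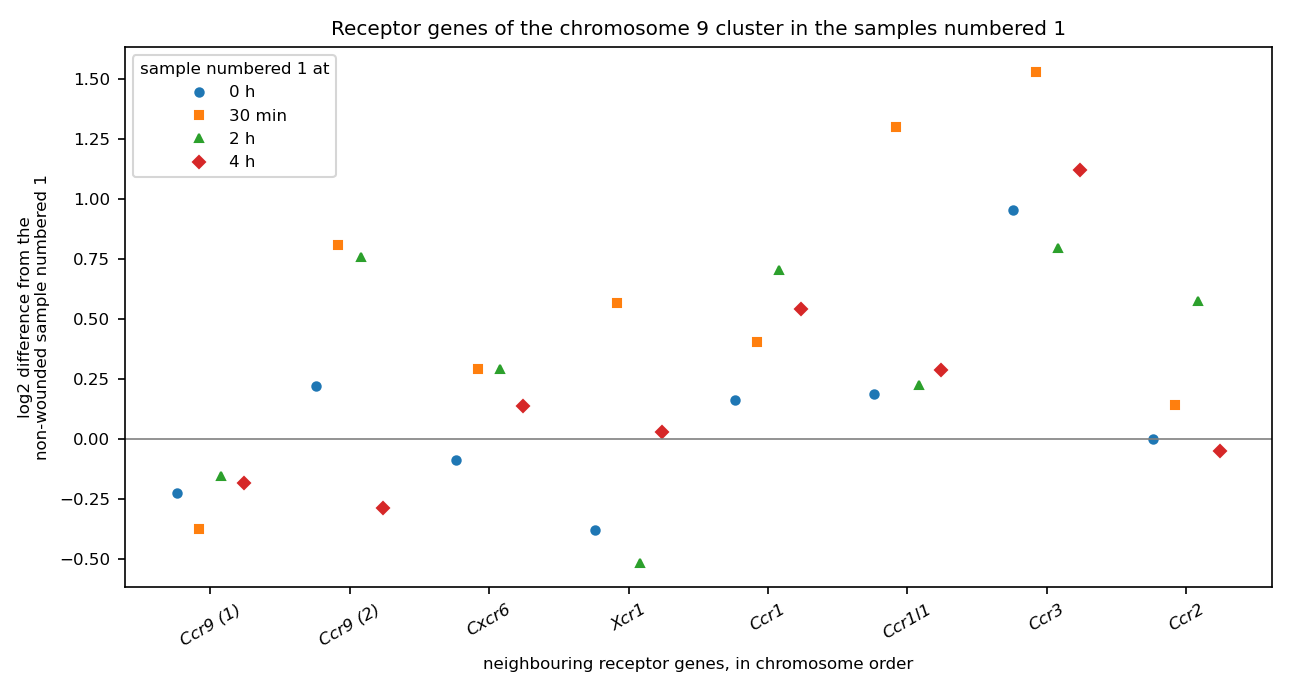
Log2 difference of the samples numbered 1 at 0 h, 30 min, 2 h and 4 h from the non-wounded sample numbered 1 (y axis) for 8 probe sets of 7 receptor genes of one chromosome run, in chromosome order (x axis), 1 sample a point. Ccr3 lies between 0.80 and 1.53 at all 4 times, and the 30 min sample lies at 1.30 for Ccr1l1.

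Set against the non-wounded sample of the same number, the 30 min sample numbered 1 was at least 1 higher for 3 of 46 members (Ccr3, Ccr1l1 and Cxcl10), against 65 of all probe sets (5.22%). It was at least 1 lower for 1 member (Xcl1), against 125 of all (10%). In this pair 27 of 46 members were higher (median 0.13), against 51.0% of all probe sets (median 0.02). Leaving out the 30 min sample numbered 2, so that a sample numbered 1 alone stood for 30 min, limma called 5 members, against 74 of all probe sets (5.94%). Among them were Cxcl10 (1.63, adjusted p = 0.0375), Cxcl15 (1.07, 0.04), Ccr1l1 (1.48, 0.04) and Ccr3 (1.64, 0.049), and the lone sample is assumed there to vary like the other groups. Without the sample numbered 1, the count was 0, and the sample numbered 2 differed from the mean of the non-wounded numbers 2 to 4 by -0.02 for Ccr3 and Ccr1l1, 0.13 for Cxcl10 and 0.14 for Cxcl15.

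Between 30 min and 2 h no member passed the test. The count was 0 of 46, with 0 of all probe sets past the threshold (0%), and 0 and 0 (0%) with the block. At an unadjusted p under 0.05 limma had 1 member (2.17%), Xcr1, against 27 of all (2.17%), and with the block 2, against 67 (5.38%). For Xcr1 the difference, 2 h minus 30 min, was -0.66 (SE 0.23, 95% interval -1.17 to -0.14, adjusted p = 0.98). Xcl1 differed the other way, by 0.83 ± 0.42 SE (adjusted p = 0.98). The groups did not overlap for 2 members with 2 h higher (Ccl25 and Cx3cr1) and 2 with 2 h lower (Xcr1 and the B cell attractant Cxcl13), against 47 (3.77%) and 21 (1.69%) of all probe sets. The median of the members was -0.04 with 22 of 46 higher, against 0.01 and 50.6% of all, and 30 of 46 intervals lay wholly between -1 and 1.

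The skin T cell ligand Ccl27a, which keratinocytes make and CCR10 binds, gave unlike answers by probe set. NM_011336.1_at was at 10.94, 8.70, 8.58 and 8.46 without wounding, 10.74 at 0 h, 11.37 and 8.24 at 30 min, 11.46, 8.34, 8.37 and 8.88 at 2 h and 10.36 at 4 h. NM_011336.1_s_at was at 9.86, 9.07, 8.99 and 8.98, then 9.94 at 0 h, 9.22 and 8.44 at 30 min, 8.90, 8.73, 8.72 and 9.25 at 2 h and 8.62 at 4 h. NM_001048179.1_at, named for another transcript of the gene, was at 7.09, 6.06, 6.05 and 5.40, then 7.02 at 0 h, 7.09 and 5.64 at 30 min, 7.20, 5.89, 5.91 and 6.13 at 2 h and 6.96 at 4 h. The non-wounded sample numbered 1 exceeded the mean of numbers 2 to 4 by 2.36, 0.84 and 1.25 in the 3 probe sets, in that order. The 2 h differences were 0.09, -0.33 and 0.13, none past the test, and the interval of the first ran from -1.95 to 2.13. Its 30 min difference of 0.63 became -0.01 with the block and 1.56 after scaling to one median and SD.

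Ccr10 was at 4.28, 3.49, 3.38 and 3.20 without wounding, 3.78 at 0 h, 4.06 and 3.37 at 30 min, 3.46, 3.35, 3.53 and 3.46 at 2 h and 4.19 at 4 h. Its highest values were those of the samples numbered 1 except at 2 h, and the difference was -0.14 ± 0.25 SE at 2 h and 0.13 ± 0.31 SE at 30 min. Ackr4 removes the ligands CCL19, CCL21 and CCL25, and it had the widest split between the kinds of sample among the receptors. It was at 5.89, 7.51, 8.21 and 8.32 without wounding and 6.19, 7.80, 7.76 and 7.47 at 2 h. It was at 6.53 at 0 h, 6.83 and 7.99 at 30 min and 5.05 at 4 h. In each group the sample numbered 1 was the lowest, and the 2 h difference was -0.17 ± 0.58 SE (95% interval -1.47 to 1.12). Ccl25, one of its ligands and the ligand of Ccr9, differed by 0.04 at 2 h and -0.16 at 30 min.

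Cxcl12, which holds CXCR4-bearing cells in place and comes in part from fibroblasts and endothelium, had 2 probe sets that differed at 30 min by 0.64 and 0.32. NM_001012477.1_psr1_a_at was at 5.49, 4.64, 4.70 and 4.70 without wounding, 5.19 at 0 h, 6.20 and 4.83 at 30 min, 5.36, 4.84, 4.75 and 4.67 at 2 h and 5.66 at 4 h. NM_021704.2_psr1_at was at 3.20, 3.26, 3.33 and 3.57, then 3.53 at 0 h, 4.02 and 3.30 at 30 min, 3.55, 3.49, 3.21 and 3.13 at 2 h and 3.41 at 4 h. In both, the 30 min sample numbered 1 was the highest of the 12, and the 2 h differences were 0.03 and 0.00. Cxcr4 varied little, at 3.43, 3.57, 3.17 and 3.15 without wounding, 3.31 at 0 h, 3.24 and 3.33 at 30 min, 3.28, 3.26, 3.52 and 3.48 at 2 h and 3.35 at 4 h. Its 95% interval at 2 h, -0.30 to 0.41, was the narrowest of the receptors.

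Ccl1, the ligand of CCR8 on T cells, was at 3.63, 3.08, 3.19 and 3.12 without wounding, 4.09 at 0 h, 4.15 and 3.33 at 30 min, 3.60, 3.23, 3.36 and 3.35 at 2 h and 3.91 at 4 h. The 30 min difference was 0.49 ± 0.26 SE (limma adjusted p = 0.735, with the block 0.446). Ccr8 differed by 0.33 at 30 min and -0.03 at 2 h. The eosinophil attractants Ccl11 and Ccl24 differed by 0.27 and 0.28 at 2 h and by 0.41 and 0.03 at 30 min. Cxcl13 differed by -0.02 at 2 h and its B cell receptor Cxcr5 by -0.22.

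The single samples at 0 h and 4 h allowed no test. At 0 h, 1 of 46 members lay at least 1 above the non-wounded mean and outside the non-wounded range, against 12 of all probe sets (0.963%), and 0 lay as far below, against 67 (5.38%). The 1 was Ccr3, at 3.55 against a mean of 2.49 ± 0.16 (SD, n = 4), a difference of 1.06. Against the non-wounded sample of its own kind it differed by 0.95. With that reference the count was 0 of 46 in both directions, against 4 of all probe sets higher (0.321%) and 7 lower (0.562%). At 4 h, 4 members lay that far above (Cxcl10, Cxcl15, Ccr3 and Cxcr1), against 77 of all (6.18%), by 1.12, 1.15, 1.23 and 1.11 in that order. Another 4 lay that far below (Xcl1, Cx3cl1, Ackr4 and the Ccr9 probe set NM_009913.5_psr1_x_at), against 215 of all (17.3%), by -2.48, -1.41, -2.43 and -1.63. Against the non-wounded sample numbered 1 the 4 h differences of these were 0.77, 0.99, 1.12 and 0.65, and -2.88, -0.99, -0.84 and -0.28. With that reference 1 of 46 members (Ccr3) was at least 1 higher, against 41 of all probe sets (3.29%), and 2 were at least 1 lower, against 106 (8.51%). These 2 were Xcl1 and the Ccl27a probe set NM_011336.1_s_at, which differed by -1.23 from that sample and by -0.60 from the non-wounded mean. Ackr4 and Ccr9 were already low in the non-wounded sample numbered 1.

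The chemokine system beyond the members was read from a list of 26 genes, of which 20 were measured. At 2 h, 1 of the 20 rose and 0 fell, and with the block 5 rose (Ccl20, Cxcl1, Cxcl2, Ccl21a and Icam1) and 0 fell. Ccl20, the ligand of CCR6, was the 1 without the block, at 4.09 ± 0.65 SE (limma adjusted p = 0.0412). At 30 min and between 30 min and 2 h, 0 of 20 passed in either direction with or without the block. Of the 8 family genes outside the members 8 were higher at 2 h, with a median of 0.89, beside 0.05 for the members. Among these the receptors Cxcr2, Ccr6 and Ccr7 differed by only 0.01, 0.07 and 0.09. The genes were set apart from the members with earlier results known, so no conclusion is drawn from the contrast of medians. The inducers Il1b and Il6 were at 1.26 ± 0.34 SE and 1.02 ± 0.29 SE (adjusted p = 0.354 for both), and Ifng and Il17a at 0.02 and -0.05. Il1a, the other inducer measured, was at -0.41 ± 0.23 SE at 2 h (adjusted p = 0.998, with the block 0.246) and at -0.70 ± 0.29 SE at 30 min (0.735, with the block 0.432). Of the adhesion molecules by which leukocytes attach to vessel walls, Icam1 differed by 2.56 ± 0.48 SE at 2 h (limma adjusted p = 0.0777, with the block 0.0114). Vcam1, Sele and Selp differed by 0.16 to 0.27. Tpst1 and Tpst2, which sulfate the tyrosines of chemokine receptors, differed by -0.12 and -0.27.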

How the data were processed

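The authors deposited a single table, 1246 probe sets in 12 samples, of log2 values made by RMA, per the submitters' processing notes. Per the labels' protocols, Trizol-extracted total RNA was made into biotin-labelled cRNA for single-colour Affymetrix arrays. The array name and software version were not stated by the sources used here. No probe set has a detection call, and precision is limited by the number of arrays.

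Probe sets were named through the accessions of the RefSeq gene table (GRCm38.p6, names and gene order only): 963 matched 1 symbol, 0 several and 283 none. The main test was limma 3.58.1 (R 4.3.3, lmFit and eBayes) with group means over all 12 samples, two-sided, adjusted over all 1246 probe sets by Benjamini and Hochberg's method at a threshold of 0.05. Members were read out of that fit. It was tested on simulated data with planted shifts far larger than any 2 h difference of a member. That run therefore says nothing about how often shifts as small as theirs would be found. The single samples at 0 h and 4 h were described by a difference of 1 or more outside the non-wounded range. Figures used matplotlib 3.10.9.

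Members, roles and lists were chosen with earlier results of these data known. Values in every sample are given for members with an unadjusted p under 0.05 in any comparison or among the 3 smallest, and for a fixed set of ligands and receptors of resident epidermal cells. Cxcl10 and Ccr3 were added after their values were seen. Protein sequences were not used here. Values of some genes are not reported here.

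To see whether equal replicate numbers in the titles pair the 2 h with the non-wounded samples, deviations from the group means were correlated. The correlations were 0.796 (number 1), 0.449 (number 2), 0.651 (number 3) and 0.297 (number 4), over the limit of 0.1 in every case. With number 1 left out they were -0.150, 0.0727 and -0.319 for numbers 2 to 4, none of them over that limit. Pairing among the numbers 2 to 4 was therefore not shown. Numbered pairs and the block there stand for equal numbers in the titles only. Alternatives were fixed and random replicate blocks, other scalings (quantile, median, one median and SD), a term for number 1, the numbers 2 to 4 alone, a filter at the 25 percentile of mean value, an intensity trend, array weights, only the groups compared, 1 probe set per gene, stricter thresholds and leaving out each sample.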

Additional observations from a re-analysis of the deposited data

Results flagged for a closer look

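Of 92 tested sets of 4 samples (46 probe sets in the non-wounded and the 2 h group), 11 held a sample whose gap to its neighbour, over the whole range, passed Dixon's critical value of 0.829. That is 12% of the member sets, against 20.6% over all probe sets, where chance gives about 1 in 20. In all 11 the sample was the highest of its group and the one numbered 1. How often this held among the flags over all probe sets was not counted, so it is no result about the members.

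In the non-wounded group these were the ligands Ccl27a (10.94 in one probe set against 8.46 to 8.70 in the others, and 9.86 against 8.98 to 9.07 in another), Cxcl12 (5.49 against 4.64 to 4.70) and Ccl3 (3.05 against 2.45 to 2.49). The receptors Ccr2 (2.83 against 2.34 to 2.40) and Xcr1 (2.92 against 2.51 to 2.57) were the other two. At 2 h the ligands Ccl24 (4.50 against 3.04 to 3.15) and Cxcl5 (3.48 against 2.19 to 2.29) stood out. So did the neighbouring receptors Ccr1 (3.02 against 2.18 to 2.21), Ccr1l1 (3.33 against 2.77 to 2.86) and Ccr3 (3.39 against 2.29 to 2.47).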

How the results depend on the processing

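The count of members past the threshold was 0 in each of the 3 comparisons and stayed 0 in all alternatives run but 2. At 2 h it was 7 with array weights, and at 30 min it ranged from 0 to 5 over the fits that left out each sample, with 5 without the 30 min sample numbered 2. With the replicate number as a block the count of members was 0 in each comparison, and the block changed no member's call. The smallest adjusted p of any member ran, over the alternatives, from 0.00401 to 1 at 2 h, from 0.0375 to 0.999 at 30 min and from 0.0599 to 1 between them. The replicate block on samples scaled to one median and SD was added after seeing the data.

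For the 0 h sample, the 1 member described became 0 when the reference was the non-wounded sample numbered 1 alone, and 0 after scaling to one median and SD. For the 4 h sample the count went from 8 to 3 with that reference, with 2 of the 8 (Xcl1 and Ccr3) among the 3 and a Ccl27a probe set as the other. Over all probe sets the count fell with that reference too, from 79 to 11 at 0 h and from 292 to 147 at 4 h. Of 1526 alternatives over 75 results of single members, 1310 kept direction and call, 208 changed direction with no call on either side, 8 gained a call and 0 lost one. Of all 46 members, 17 lay under the 25 percentile of mean value over all probe sets.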
